A study of Mus musculus with 3 samples.

Results

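Fcnb-positive neutrophil precursors were selected on their Fcnb and Chil3 counts: they are the cells of a total mouse bone marrow library that held at least 5 unique molecular identifiers (UMIs, the tags that mark single RNA molecules) of Fcnb and at least 10 of Chil3. They were 274 of 4290 total marrow cells, 6.39% (exact 95% binomial interval 5.67 to 7.16%), and 274 of 8824 cells in all 3 libraries together. The libraries were made from the marrow of mouse femora, tibiae, hips and spines with a droplet kit that tags the 3' end of each RNA (10x Genomics, version 2), after cell sorting. They hold total bone marrow (TBM), LK cells and LSK cells, with 1 library each. LK and LSK are read here as lineage-negative Kit+ cells and lineage-negative Sca-1+ Kit+ cells, the usual meaning of these names. The strain, genotype, number, sex and age of the mice are not given in the labels, and none of them names a treatment. Since each group is 1 library, no test between groups can be made: every interval below covers counting error only, and differences between sets of cells are descriptions of this 1 library.

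Neutrophils are made in the marrow from granulocyte-monocyte progenitors. Promyelocytes fill the primary granules with myeloperoxidase and serine proteases, myelocytes then make the secondary granule proteins such as lactoferrin, and the gelatinase granules are filled later, when the cells have stopped dividing. Fcnb (ENSMUSG00000026835, GRCm38 chr2:28076378-28084885, minus strand) encodes ficolin-B, a lectin that binds sugars on microbes and can start the lectin pathway of complement, and Chil3 (ENSMUSG00000040809, chr3:106147554-106167564, minus strand) encodes Ym1, a chitinase-like lectin of myeloid cells. Orm1 encodes the plasma protein orosomucoid, which myeloid cells also make, and Cd177 a surface glycoprotein of neutrophils.

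The promoters of 5 genes are shown, because Fcnb chose the cells and Elane, Mpo, Ltf and Ngp are primary and secondary granule genes described below. Each is 250 bases before to 50 bases after the RefSeq start in GRCm38.p6, on the strand of the gene. Capitals mark TTGCNNAA, the core of many sites bound by C/EBP factors, and AGAGGAAG, a core bound by PU.1. Both strands were searched, and no capitals of one motif overlap the other. Fcnb lies at chr2:28084829-28085128 on the minus strand, Elane at chr10:79886062-79886361, Mpo at chr11:87793534-87793833, Ltf at chr9:111019042-111019341 and Ngp at chr9:110419558-110419857 on the plus strand.
Fcnb: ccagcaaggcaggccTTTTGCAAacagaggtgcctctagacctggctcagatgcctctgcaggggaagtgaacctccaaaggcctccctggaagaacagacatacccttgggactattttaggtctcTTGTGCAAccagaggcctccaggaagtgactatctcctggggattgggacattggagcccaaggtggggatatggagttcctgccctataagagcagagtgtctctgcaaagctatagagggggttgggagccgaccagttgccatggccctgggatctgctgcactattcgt
Elane: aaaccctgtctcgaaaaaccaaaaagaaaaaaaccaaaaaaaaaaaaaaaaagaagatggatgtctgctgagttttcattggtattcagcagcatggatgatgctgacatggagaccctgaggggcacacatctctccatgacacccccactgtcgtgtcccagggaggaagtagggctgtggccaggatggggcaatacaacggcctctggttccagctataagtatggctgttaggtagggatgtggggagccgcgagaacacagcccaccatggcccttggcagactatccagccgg
Mpo: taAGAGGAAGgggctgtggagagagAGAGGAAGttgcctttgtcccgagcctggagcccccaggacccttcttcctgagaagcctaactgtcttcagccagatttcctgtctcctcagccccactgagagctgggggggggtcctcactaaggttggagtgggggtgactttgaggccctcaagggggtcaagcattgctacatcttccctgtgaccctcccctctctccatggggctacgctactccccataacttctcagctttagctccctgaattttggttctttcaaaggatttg
Ltf: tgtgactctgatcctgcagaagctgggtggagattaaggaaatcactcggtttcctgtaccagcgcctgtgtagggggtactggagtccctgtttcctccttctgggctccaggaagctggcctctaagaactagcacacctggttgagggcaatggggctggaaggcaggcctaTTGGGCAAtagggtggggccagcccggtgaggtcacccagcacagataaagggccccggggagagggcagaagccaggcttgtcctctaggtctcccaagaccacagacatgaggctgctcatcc
Ngp: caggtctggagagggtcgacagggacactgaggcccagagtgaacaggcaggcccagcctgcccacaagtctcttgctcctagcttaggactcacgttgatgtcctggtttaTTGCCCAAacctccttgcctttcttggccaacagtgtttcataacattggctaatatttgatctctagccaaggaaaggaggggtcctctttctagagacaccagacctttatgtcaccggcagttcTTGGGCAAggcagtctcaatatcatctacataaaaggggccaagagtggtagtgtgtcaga
The Fcnb and Ngp windows hold 2 TTGCNNAA matches each and the Ltf window holds 1, while the Mpo window holds 2 AGAGGAAG matches. The Elane window holds 0 of either, as do those of Prtn3, Camp, Cd177 and Chil3. Of the promoters with a sequence, TTGCNNAA stood in 2 of 11 primary granule genes, 4 of 14 secondary granule genes, 4 of 10 gelatinase granule and late genes and 3 of 27 S phase genes, against 10.8% of 27025 promoters of all genes. AGAGGAAG stood in 2 of 11, 3 of 14, 0 of 10 and 0 of 27 of the same lists, against 4.51% of all promoters. A match describes the letters of the window and not a site that is bound.

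The precursors were compared with the TBM cells that had fewer than 5 Fcnb UMIs and at least 10% of their UMIs from S100a8 and S100a9, the calprotectin genes that abound in neutrophils. These 1326 other neutrophils were divided into 903 granule-high cells, with at least 1% of their UMIs from Camp, Ltf and Ngp, and 423 granule-low cells below that share. TBM cells in which Elane made up at least 1% of UMIs and which belonged to neither set, 47 in number, are given as Elane-high cells. B lineage cells (1407 cells with at least 3 Cd79a and Cd79b UMIs outside both neutrophil sets, median 1967 UMIs per cell) give the level of free RNA, since B cells should lack granule transcripts; 3 of them are also Elane-high and so hold such transcripts of their own. The precursors had a median of 11641 UMIs per cell (4920 to 25916), against 2882 (502 to 18152) in the other neutrophils. A rule of 5 and 10 UMIs cannot be met by shallow cells as easily as by deep ones, so the values are also set against the 430 granule-high cells with at least 4000 UMIs. These deeper cells had a median of 5920.5 UMIs, still below the 11641 of the precursors, so the 2 sets are not matched in depth. The total was 3275821 UMIs in the precursors and 4837703 in the other neutrophils. At the TBM depth 3 UMIs, taken as the limit that a count of 0 allows, equal 0.916 CPM (UMIs scaled to the same total in every set of cells) in the precursors. The same limit equals 0.620 CPM in the other neutrophils and 4.21 CPM in granule-low neutrophils.

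No LK cell and no LSK cell met the rule, which allows shares of up to 0.0866% of 3464 LK cells and 0.280% of 1070 LSK cells. Fcnb alone reached 5 UMIs in 4 LK cells and 0 LSK cells. The enrichment that precedes the LK and LSK sorts used antibodies to CD11b, Ly-6G and Ly-6C, which neutrophils carry, so these shares can be set by the gate. TBM and LK shared 26 cell barcodes, TBM and LSK 6, and LK and LSK 6. Of the precursors' barcodes, 1 also occurred in LK and 0 in LSK.

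The label was checked against its markers. Fcnb and Chil3 were used by the rule: the precursors held 5 to 99 Fcnb UMIs per cell (median 11) and 10 to 264 Chil3 UMIs (median 88). Orm1 was found in 234 of the 274 cells and Cd177 in 263. Of the secondary granule markers, Ltf was found in 98.2% of precursors, against 20.04% of B lineage cells, and Cebpe, a transcription factor needed for secondary granules, in 98.5%, against 2.63% of B lineage cells. Thinned to 1500 UMIs per cell, Ltf was found in 94.9% of precursors against 12.8% of B lineage cells, and Cebpe in 74.5% against 1.43%. Thinned alike, Cd177 was found in 57.3% of precursors and Orm1 in 32.1%. In the granule-high cells with at least 4000 UMIs, Ltf was found in 98.4%, Cd177 in 64.4%, Cebpe in 60.0% and Orm1 in 22.1%. Ltf and Cd177 thus do not set the precursors apart from these neutrophils. Camp and Ngp were found in all 274 precursors but also in 81.1% and 75.6% of B lineage cells, so a UMI of these genes marks no cell. In 267 precursors S100a8 and S100a9 made up at least 10% of UMIs, with a median over all precursors of 30.3%. The other 7 did not reach that share. Of these, 3 lay at 0.861%, 0.531% and 0.789%, with Camp, Ltf and Ngp at 0.0756%, 0.100% and 0.156% of their UMIs, and held 201, 97 and 45 UMIs of Ly6c2, a gene of monocytes and immature granulocytes. For these 3 cells the data go against the label, and the granule list medians below are also given without the 7.

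The threshold cut through a continuous range. The 28 precursors with exactly 5 Fcnb UMIs had a median of 10400 UMIs in all and 67.5 of Chil3, and the 30 TBM cells with 4 Fcnb UMIs and at least 10 of Chil3 had medians of 8127 and 43.5. Elane stood at 155 CPM in the cells just inside and at 492 CPM in the cells just outside. Both are sums over few cells, and the cells just outside were not required to reach the S100 share of the other neutrophils. On the Chil3 side the gap was wider: 24 of the 298 TBM cells with at least 5 Fcnb UMIs were left out for Chil3, and only 5 of these had 5 to 9 Chil3 UMIs. Of the 47 Elane-high cells, 23 had at least 5 Fcnb UMIs and 0 had 10 Chil3 UMIs. For these 23 cells the 0 was set in advance, because cells that met the rule were kept out of the Elane-high set. The 23 are among the 24 cells left out for Chil3. Elane also made up at least 1% of UMIs in 8 precursors.

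**Figure D1:**
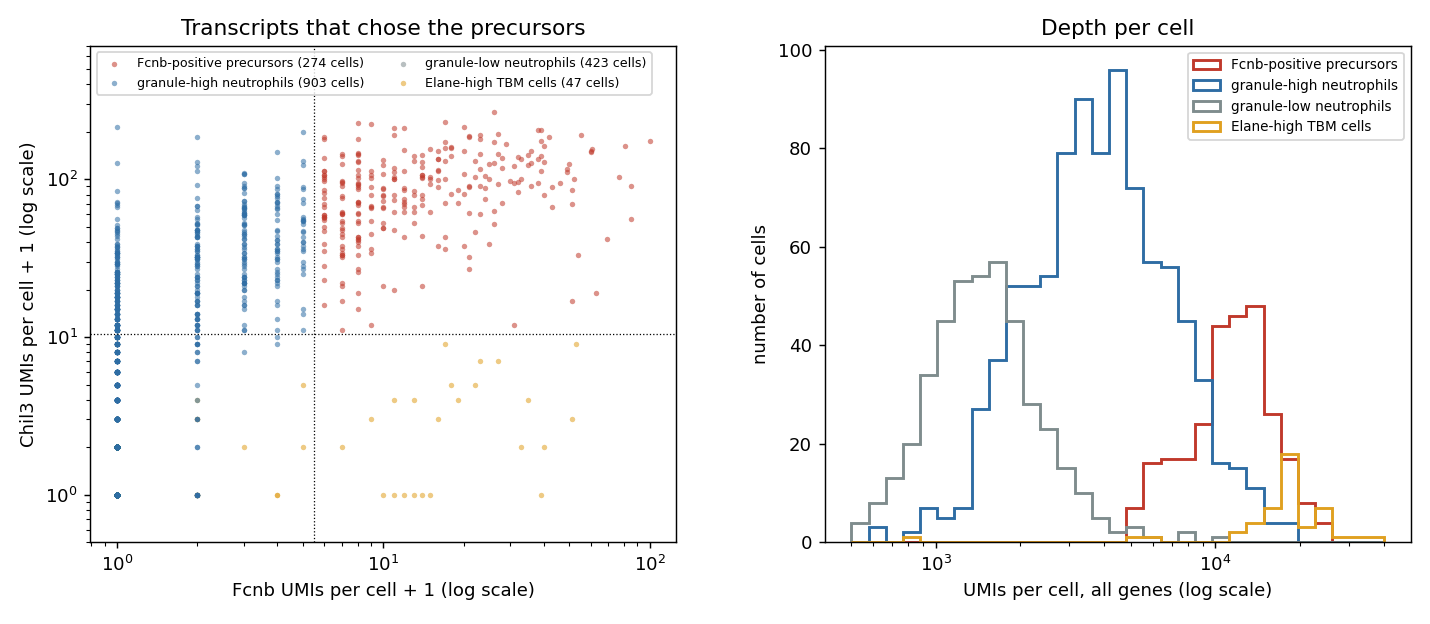
Left, Fcnb against Chil3 UMIs per cell, each plus 1, on log axes, with dotted lines at the limits of the rule; right, histogram of all UMIs per cell on a log axis. Each point is a TBM cell; the 274 precursors fill the upper right corner by construction, and their median of 11641 UMIs lies above that of the granule-high neutrophils (3873) and granule-low neutrophils (1459) and below that of the Elane-high cells (18094).

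Levels below are summed UMIs of a set of cells as CPM, and differences are log2 ratios of CPM, precursors over the named cells, with the exact 95% counting interval in brackets. Over the 8369 genes with at least 20 UMIs in the precursors and other neutrophils together, outside the 4 genes of the rule, 1824 (21.8%) were at least 2-fold higher in the precursors and 1009 (12.1%) at least 2-fold lower, with a median log2 ratio of 0.24. With a median-of-ratios size factor, which sets the median near 0 by its construction, the counts were 1313 higher and 1356 lower. List medians are therefore read against 0.24. Against the deeper granule-high cells 1270 of 7850 genes (16.2%) were at least 2-fold higher and 594 (7.57%) at least 2-fold lower. The same shares were 20.5% and 9.47% of 8165 genes against all granule-high cells, and 35.3% and 17.8% of 6979 genes against granule-low cells. The lists of genes below were chosen with earlier results of these data known.

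Primary granule genes were higher in the precursors than in the other neutrophils. Of 13 measured members of the list, 10 passed 2-fold upward and 0 downward, with a median log2 ratio of 3.18, against 0.24 over all genes. Elane, neutrophil elastase, stood at 1428 CPM (1387 to 1469) in the precursors, against 61.2 CPM in the other neutrophils, a log2 ratio of 4.54 (4.37 to 4.72). Prtn3, proteinase 3, stood at 543 CPM against 27.7 CPM, and Mpo, myeloperoxidase, at 370 CPM against 37.8 CPM. Ms4a3, a membrane protein of granulocyte-monocyte progenitors, stood at 390 CPM against 39.9 CPM, and Nkg7, which is also known from cytotoxic lymphocytes, at 192 CPM against 16.3 CPM. The proteoglycan gene Srgn, whose product packs granule proteases, had a log2 ratio of -0.17 against all the other neutrophils. Its log2 ratio was 0.94 against granule-high and -2.20 against granule-low neutrophils. The protease-activating Ctsc did not follow, at 0.14 against the other neutrophils.

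These transcripts were spread very unevenly. The median precursor held 1 Elane UMI, 115 held 0, and the highest held 653. The 48 precursors with at least 10 Elane UMIs held 95.9% of all Elane UMIs of the set, against 0 of 1326 other neutrophils with at least 10. Of those 48 cells, 32 also had at least 10 Ltf UMIs. Another 52 precursors had no UMI of Elane, Mpo, Prtn3 or Ctsg. Without the 7 cells of low S100 share the list median was 2.10 and the Elane log2 ratio 3.76, and the Mpo log2 ratio was 1.96 without them and 3.29 with them; all 3 kept their direction. After each cell was thinned to 1500 UMIs, Elane was found in 23.7% of precursors, against 9.30% of granule-high neutrophils, and in 7.31% of B lineage cells (58.0%, 22.5% and 11.5% without thinning). The share in granule-high neutrophils is thus near the free RNA level. Ms4a3 was less concentrated: 223 of the precursors held it, with a median of 2 UMIs.

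Secondary granule genes, in contrast, stood close to their level in the other neutrophils. Of 16 measured members, 0 were at least 2-fold higher and 1 was at least 2-fold lower, with a median of -0.01. Ltf, lactoferrin, stood at 6575 CPM (6487 to 6663) in the precursors, against 7303 CPM in granule-high and 128 CPM in granule-low neutrophils. Camp, the cathelicidin antimicrobial peptide, stood at 68996 CPM in the precursors, against 56617 CPM in granule-high and 1659 CPM in granule-low neutrophils. Ngp, neutrophilic granule protein, stood at 58788, 43515 and 2073 CPM in the same order. Camp, Ltf and Ngp divided granule-high from granule-low cells, so the contrast between those sets for these genes was set by that division. Lcn2, the iron-siderophore binding lipocalin, stood at 11868, 11410 and 2767 CPM in that order. The 1 member below 2-fold was Ceacam10, at 33.9 CPM in precursors against 176 CPM in the other neutrophils. Orm1 had a log2 ratio of 0.83 (0.69 to 0.98) against the other neutrophils and 0.26 (0.11 to 0.41) against the deeper granule-high cells. Cd177 had one of -0.14 (-0.22 to -0.05). With every cell given equal weight the Orm1 log2 ratio was 1.71, and after thinning Orm1 was found in 32.1% of precursors, against 11.4% of the other neutrophils, so its difference depended on how cells of unlike depth were summed. Without the 7 cells of low S100 share the secondary granule median was 0.01.

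**Figure D2:**
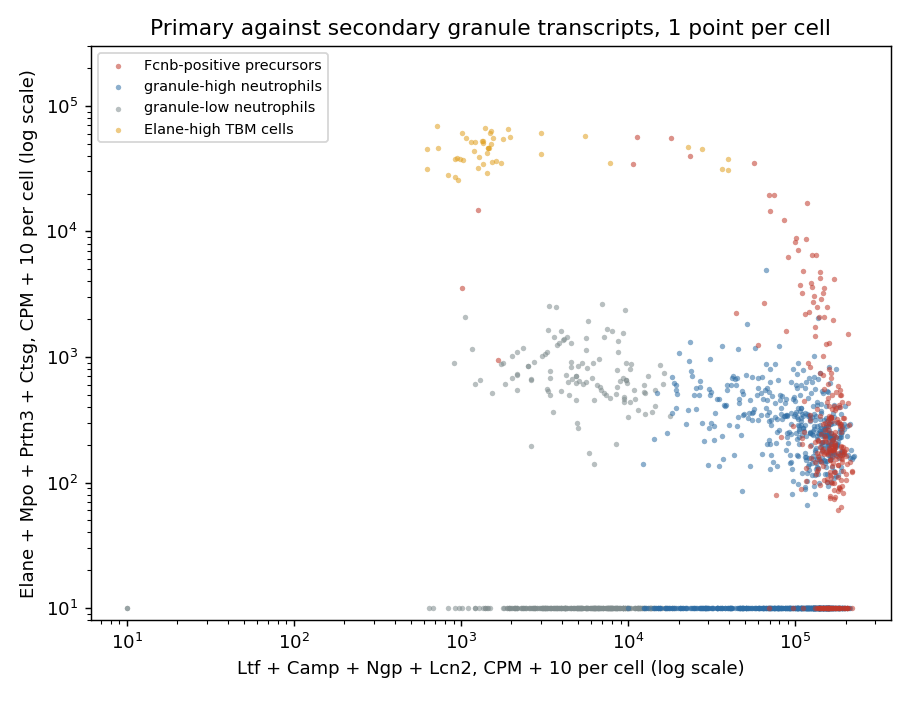
Per-cell primary granule level (Elane, Mpo, Prtn3 and Ctsg) against secondary granule level (Ltf, Camp, Ngp and Lcn2), both in CPM on log axes. Each point is a TBM cell of the named set, with 10 CPM added to each value; the precursors run from cells with 0 primary granule UMIs (52 cells) to cells with both kinds of transcript, and most Elane-high cells lie apart from them at low secondary granule levels.

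Gelatinase granule and late genes were lower in the precursors. Of 12 measured members, 10 were at least 2-fold lower and 0 higher, with a median of -2.71, and of -2.76 without the 7 cells of low S100 share. Retnlg, a resistin-like secreted protein, stood at 1105 CPM (1070 to 1142) in the precursors, against 13380 CPM in granule-high and 57737 CPM in granule-low neutrophils. The collagenase gene Mmp8 stood at 57.4, 1157 and 1534 CPM in the same order, and the gelatinase gene Mmp9 at 77.8, 903 and 1837 CPM. Fpr1, a receptor for bacterial formyl peptides, had 24 UMIs in all 274 precursors, 7.33 CPM, against 110 CPM in the other neutrophils. Retnlg, Mmp8 and Mmp9 were lowest in the precursors and highest in granule-low neutrophils. Thinned to 1500 UMIs, Mmp8 was found in 5.11% of precursors, against 64.2% of granule-high neutrophils, and in 1.51% of B lineage cells (14.2%, 74.6% and 3.13% without thinning). Retnlg was found in 36.1% of precursors, against 82.9% of granule-high neutrophils, but also in 30.4% of B lineage cells (92.0%, 95.1% and 43.9% without thinning). Its thinned share in the precursors is thus near that of B lineage cells. The mean thinned count was higher, at 1.59 Retnlg UMIs per precursor against 0.424 per B lineage cell. Only 36 precursors held 10 or more Retnlg UMIs.

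Genes of mature neutrophils followed, with 16 of 19 measured members at least 2-fold lower, 0 higher and a median of -2.65. Against the deeper granule-high cells, 12 of 19 were at least 2-fold lower and the median was -1.09. Cxcr2, the chemokine receptor that draws neutrophils out of the marrow, stood at 17.7 CPM in the precursors, against 85.3 CPM in granule-high and 462 CPM in granule-low neutrophils. Ly6g, the antigen of the antibody used to sort neutrophils, stood at 264 CPM (246 to 282) in the precursors, against 945 CPM in granule-high and 577 CPM in granule-low neutrophils. The calcium-binding S100a6 stood at 737 CPM against 4640 and 12337 CPM. Several genes with the lowest log2 ratios had few UMIs: Stfa2l1, a stefin with near-identical gene copies whose reads may be split, had 9 UMIs in the precursors, 2.75 CPM, against 83.1 CPM in the other neutrophils. Acvrl1, a receptor of the BMP family, had 5 UMIs, 1.53 CPM, against 40.9 CPM, and Thbs1, thrombospondin-1, had 11 UMIs, 3.36 CPM, against 54.98 CPM. Acvrl1 and Thbs1 were higher in granule-high neutrophils, at 45.1 and 60.1 CPM, than in granule-low ones, at 16.9 and 25.3 CPM. Jaml, an adhesion molecule, ran the other way, with 2.75 CPM in precursors, against 11.4 CPM in granule-high and 232 CPM in granule-low neutrophils. Gpr27, Gm16556, H2-Q10 and Mirt2, also among the 12 lowest log2 ratios, had 8 to 19 UMIs each in all precursors together. The interferon response genes had 12 of 17 measured members at least 2-fold lower and 0 higher, with a median of -2.14, and against the deeper granule-high cells 7 of 13 at least 2-fold lower, with a median of -1.13. The antiviral ubiquitin-like Isg15 stood at 13.1 CPM against 51.3 CPM, and Rtp4, a chaperone induced by interferon, at 2.44 CPM against 34.5 CPM.

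The cell cycle separated the precursors from the other neutrophils as broadly as any list. Of 31 measured S phase genes, 30 passed 2-fold upward and 0 downward, with a median of 2.70, and of 32 G2/M genes 30 were higher and 0 lower, with a median of 1.83. Against the deeper granule-high cells the counts were 31 of 31 and 22 of 32, with medians of 2.39 and 1.23. Tk1, thymidine kinase, stood at 127 CPM (115 to 140) in the precursors, against 10.1 CPM in the other neutrophils, a log2 ratio of 3.65 (3.22 to 4.11). The DNA ligase Lig1 stood at 96.5 CPM against 8.06 CPM, and the replicative helicase subunits Mcm5 and Mcm6 at 75.1 and 66.2 CPM against 7.86 and 7.03 CPM. Top2a, the topoisomerase that untangles chromosomes, stood at 193 CPM against 44.7 CPM. The G1/S cyclins Ccne1 and Ccne2 stood at 22.0 and 54.0 CPM against 2.48 and 3.72 CPM, while the cyclin D gene Ccnd3 had a log2 ratio of 0.19 and the inhibitor Cdkn1b of -0.91. Of 15 measured G1 cyclins, CDKs and inhibitors, 9 were at least 2-fold higher and 0 lower. Histone and chromatin genes had 12 of 18 higher and 0 lower, among them Stmn1, which regulates microtubules, at 775 CPM against 141 CPM.

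Depth alone raises the share of cells with a cycle transcript, so shares were taken after thinning each cell to 1500 UMIs. All 274 precursors reached this depth, while 43 of 903 granule-high and 220 of 423 granule-low cells did not and were left out. A UMI of Mki67, the proliferation antigen, or Top2a was then found in 30.7% of precursors (25.3 to 36.5%), against 9.30% of the deeper granule-high cells (6.73 to 12.5%) and 3.45% of granule-low cells. Without thinning the shares were 75.9%, 23.3% and 2.13%. At least 3 UMIs of the S phase list were found in 46.7% of precursors, against 4.88% of the deeper granule-high and 1.97% of granule-low cells, and at least 3 of the G2/M list in 62.8% of precursors, against 86 of the 430 deeper granule-high cells and 7.88% of granule-low cells. B lineage cells, which hold dividing pre-B cells of their own, had 12.2% with a UMI of Mki67 or Top2a. Neither list reached 3 UMIs in 60 of the 274 precursors, 21.9%, against 79.1% of the deeper granule-high cells and 90.1% of granule-low cells. Most precursors thus held cycle transcripts and most other neutrophils did not at this depth. These are counts of transcripts and not calls of phase.

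**Figure D3:**
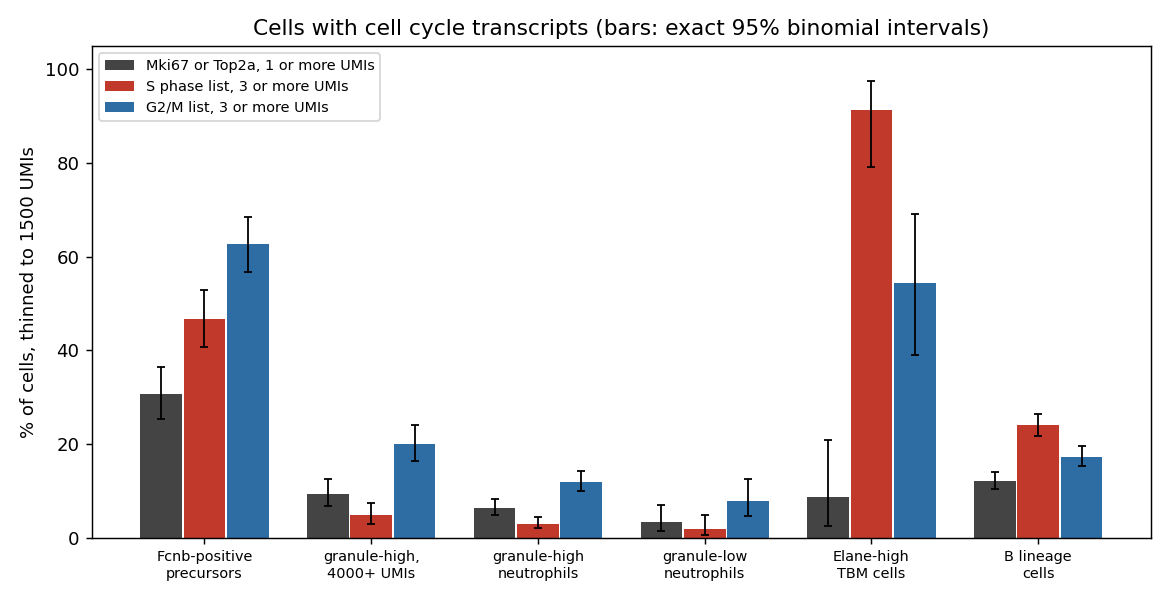
Share of cells, in percent, with cell cycle transcripts after thinning to 1500 UMIs, with exact 95% binomial intervals, for each set of TBM cells. The precursors stand at 30.7% for Mki67 or Top2a, against 9.30% of the granule-high neutrophils with at least 4000 UMIs.

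Genes for making ribosomes were also higher, while genes for secretion stood nearer to the background. Of 16 measured genes of the nucleolus and ribosome assembly, 14 passed 2-fold upward and 0 downward, with a median of 1.45; Npm1, nucleophosmin, stood at 153 CPM against 59.7 CPM and the box C/D snoRNP protein gene Nop56 at 25.03 CPM against 4.55 CPM. Ribosomal protein genes made up 7.92% of UMIs in the precursors and 4.54% in the other neutrophils. Of 28 genes of translocation, folding and export at the endoplasmic reticulum, 10 passed 2-fold upward and 0 downward, with a median of 0.87, and against the deeper granule-high cells 3 of 28 passed upward, a share below the 16.2% of all genes. The oligosaccharyltransferase subunit Ddost stood at 81.2 CPM against 23.6 CPM, while Sec61b of the translocon had a log2 ratio of -0.00. Genes of glycolysis (median 0.12), the nuclear-coded respiratory chain (0.30) and the NADPH oxidase (-0.05) had medians near that of all genes. Cybb, the catalytic subunit of the oxidase, stood at 626 CPM in precursors, against 802 CPM in the other neutrophils.

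Among 23 measured transcription factors 3 were at least 2-fold higher and 4 at least 2-fold lower, against 21.8% and 12.1% of all genes. The median was -0.23, so the list did not move as a block. Cebpe stood at 952 CPM (919 to 986) in the precursors, against 614 CPM in granule-high and 75.9 CPM in granule-low neutrophils. Gfi1, a repressor needed for neutrophil formation, stood at 25.3 CPM (20.2 to 31.4), against 5.57 and 1.40 CPM. Its granule-low value lies below the 4.21 CPM that a count of 0 allows in that set. Spi1, which encodes PU.1, differed little, at 500 CPM in precursors against 561 and 889 CPM. Junb, an AP-1 subunit, stood at 133 CPM, against 480 and 2045 CPM, and Mxd1, a MYC antagonist, at 49.2 CPM in precursors against 227 CPM in the other neutrophils. Cebpa, which acts before Cebpe, stood at 14.7 CPM in precursors and 17.2 CPM in the other neutrophils, with an interval of the log2 ratio that includes 0. Beside Gfi1 and Myc, the gene at least 2-fold higher was the clock gene Per3, at 6.41 CPM against 0.620 CPM. The latter value is the level of 3 UMIs in the other neutrophils, so this ratio rests on few counts.

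Of 17 measured homing and adhesion genes, 1 was at least 2-fold higher and 7 at least 2-fold lower, against 21.8% and 12.1% of all genes. The higher one was Itgb1, the integrin beta 1 chain, at 26.6 CPM in precursors against 9.92 CPM in the other neutrophils. Against the deeper granule-high cells, 1 of 17 was at least 2-fold higher and 3 were lower, against 16.2% and 7.57% of all genes. Cxcr4, the receptor that keeps neutrophils in the marrow, stood at 58.3 CPM in precursors, against 145 CPM in granule-high and 219 CPM in granule-low neutrophils. The G-CSF receptor gene Csf3r stood at 46.4 CPM in precursors, against 95.7 CPM in granule-high and 427 CPM in granule-low neutrophils, and the progenitor genes Kit and Cd34 had 24 and 8 UMIs in all precursors. Chit1, the chitinase chitotriosidase, stood at 71.4 CPM in precursors, against 7.998 CPM in granule-high and 1.40 CPM in granule-low neutrophils. Gatm, an enzyme of creatine synthesis, stood at 133 CPM, against 15.3 and 1.40 CPM. Vcam1, an adhesion molecule on the macrophage list, stood at 40.0 CPM in 70 precursors, against 5.33 and 1.40 CPM, while C1qc of the same list was at 0 and C1qa and C1qb at 1.22 CPM each. The 1.40 CPM of Chit1, Gatm and Vcam1 in granule-low neutrophils lies below the 4.21 CPM that a count of 0 allows there.

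**Figure D4:**
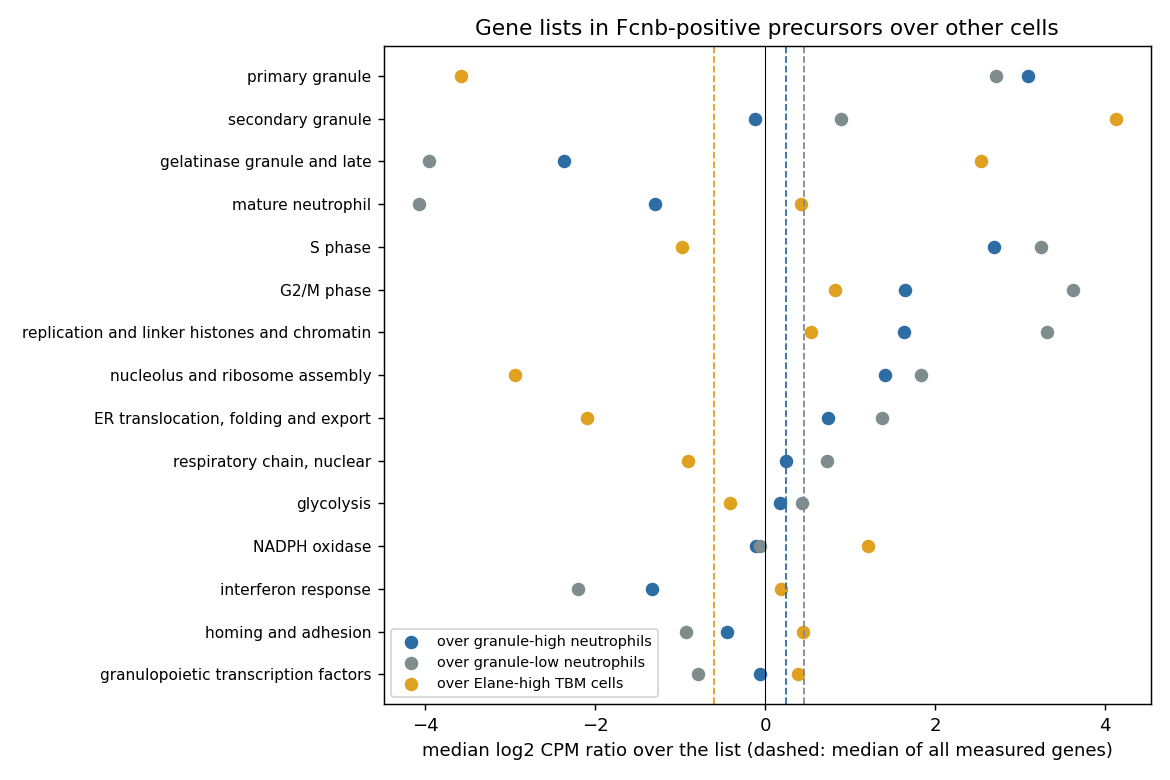
Median log2 CPM ratio of each gene list (points), precursors over granule-high neutrophils, granule-low neutrophils and Elane-high TBM cells, with dashed lines at the medians of all measured genes. Over granule-high neutrophils, the primary granule (3.10) and S phase (2.69) medians lie to the right of the line and the gelatinase granule (-2.37) and mature neutrophil (-1.30) medians to the left.

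Several transcripts of other lineages came mostly from single cells. Jchain, the joining chain of secreted antibodies, ranked first by log2 ratio, at 677 CPM in the precursors against 22.3 CPM in the other neutrophils, but 1 precursor held 2168 of its 2218 UMIs, 97.7%, and 89.4% of the Igkc UMIs. Another held 85.6% of the UMIs of Prss34 and 81.9% of those of Mcpt8, both proteases of basophils, and yet another held 44.6% of the UMIs of Hbb-bs, a haemoglobin gene found in all 274 precursors. A further cell held 32 of the 42 UMIs of Cpa3, a mast cell and basophil protease. Other such genes were spread more widely, as Cd79a of B cells was over 41 precursors with 24.5% of its UMIs in the highest. Without the 3 cells that held most Jchain, Prss34 and Hbb-bs UMIs the Jchain log2 ratio was -0.52, and the median of the basophil and mast cell list was -0.55, against 1.91 with them (4 of 5 measured members at least 2-fold higher). The B lineage list had a median of -1.03 and 4 of 8 measured members at least 2-fold lower, and its summed level ranged over 0 to 56 UMIs per precursor with a median of 0. The monocyte list had 0 higher and 6 lower of 13, with 2 to 311 UMIs per cell (median 17), and the erythroid list 0 higher and 2 lower of 11. Of the T and NK cell list 3 genes were measured, and the 1 that was higher was Nkg7. The eosinophil genes Epx, Ear1 and Il5ra, the megakaryocyte genes Ppbp and Gp1bb, and Xcr1 of dendritic cells were at 0. Other members of these lists were not. The eosinophil, megakaryocyte and dendritic cell lists held 201, 20 and 1261 UMIs in the precursors. Of their measured members, 1 of 3, 1 of 1 and 1 of 7 were at least 2-fold higher and 0 lower. For every list count in this paragraph, the shares over all genes were 21.8% higher and 12.1% lower. The lists have few measured members, so these counts are not read as results about a lineage. Scrublet, a doublet caller, marked 73 of the TBM cells (1.70%), among them 6 precursors, 30 other neutrophils and 0 of the 3 cells. Of the precursors, 8 had at least 3 Cd79a and Cd79b UMIs. Whether these cells hold RNA of a second cell was not tested.

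The precursors were ranked among themselves by the ratio of primary (Elane, Mpo, Prtn3, Ctsg) to secondary (Ltf, Camp, Ngp, Lcn2) granule UMIs and divided into an upper, a middle and a lower group of 92, 91 and 91 cells. The 8 genes of the ranking are not results here. Median UMIs per cell were 13678.5, 10957 and 10422 in the upper, middle and lower group. Over 5539 genes, 654 (11.8%) were at least 2-fold higher in the upper than in the lower group and 133 (2.40%) at least 2-fold lower, with a median of 0.26. Of the S phase list, 13 of 31 passed 2-fold upward and 0 downward (median 0.92), whereas of the G2/M list 0 of 32 passed 2-fold in either direction (median 0.02). Of the nucleolus list 8 of 12 were at least 2-fold higher (median 1.22), and ribosomal protein genes made up 11.4% of UMIs in the upper, 5.81% in the middle and 5.499% in the lower group.

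Single genes show the range. Mcm5 stood at 109, 48.4 and 57.9 CPM in the upper, middle and lower group, and Pcna, the sliding clamp of replication, at 246, 161 and 116 CPM. Ube2c, a ubiquitin-conjugating enzyme of mitosis, stood at 408, 500 and 477 CPM in the same order. The replication genes were thus highest in the upper group and the mitotic gene was not. Fcnb, which the ranking did not use but the rule did, stood at 2135, 990 and 1037 CPM. Cebpe was nearly level, at 923, 959 and 983 CPM. Ly6g stood at 83.4, 330 and 429 CPM, and Orm1 and Cd177 were likewise lowest in the upper group, at 162 and 349 CPM, against 328 and 730 CPM in the lower group. Gstm1, a glutathione transferase, stood at 235 CPM in the upper and 18.0 CPM in the lower group, and Srgn at 359 and 33.9 CPM. Srgn thus differed inside the precursors, although its summed level was close to that of all the other neutrophils together. St3gal5, a ganglioside synthase, stood at 42.1 CPM in the upper and 221 CPM in the lower group. Among genes higher in the upper group, Jchain, Mcpt8 and Prss34 rested on the single cells given above. The 7 cells of low S100 share are all in the upper group. The monocyte list had 6 of 10 measured members at least 2-fold higher there, against 11.8% of all genes. Its median was 1.33, against 0.26 over all genes. The part of the 7 cells in this and the other differences was not tested. Neither cycle list reached 3 UMIs in 11.96% of the upper, 23.1% of the middle and 30.8% of the lower group after thinning.

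**Figure D5:**
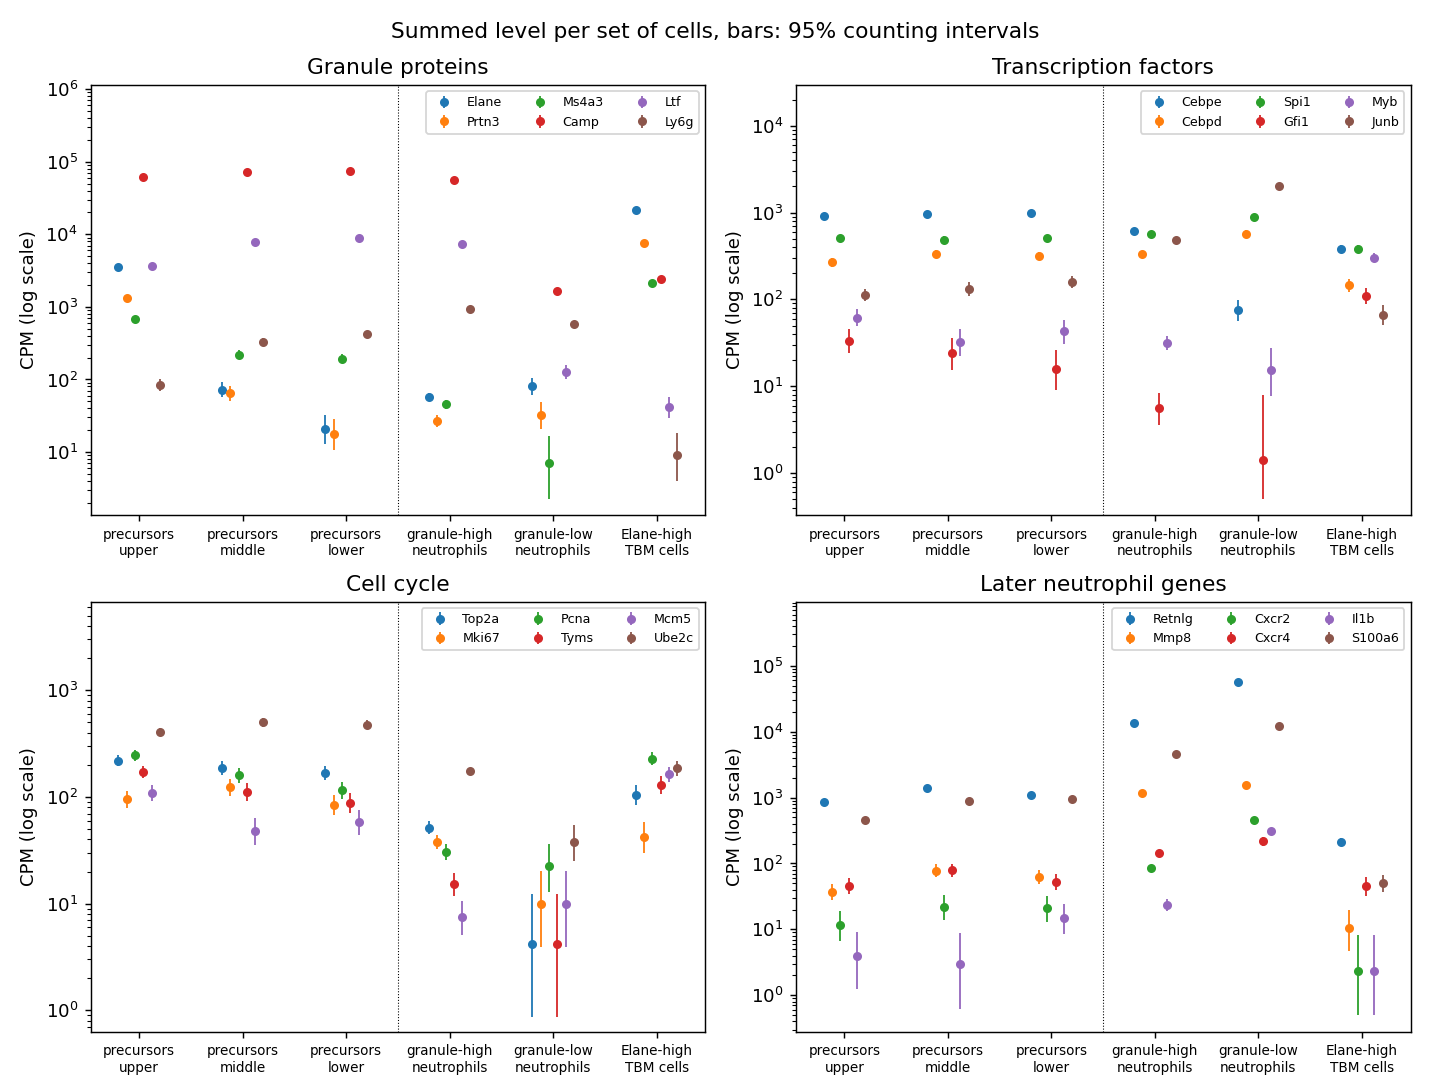
Summed level in CPM (log axis) of genes in the upper, middle and lower group of precursors and in 3 other sets of TBM cells, with exact 95% counting intervals. Ly6g is lowest among the precursor groups in the upper group (83.4 CPM) and Cebpe is nearly level over the precursor groups; Elane, Prtn3, Camp and Ltf were used to rank the precursors.

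The Elane-high cells, which were selected on a primary granule transcript, were also set beside the precursors. Of 7435 genes, 706 (9.50%) were at least 2-fold higher in the precursors and 2601 (35.0%) at least 2-fold lower, with a median of -0.60, so the background is shifted and the set is small. Secondary granule genes were higher in the precursors, with 15 of 16 past 2-fold and a median of 4.13, and primary granule genes lower, with 11 of 13 past 2-fold and a median of -3.59, a list whose Elane chose the Elane-high cells. Elane stood at 1428 CPM in the precursors, against 21306 CPM in Elane-high cells, and Ltf at 6575 against 41.4 CPM. Nucleolus genes were lower in 18 of 18 measured members (median -2.94), and endoplasmic reticulum genes in 26 of 28 (median -2.10). Of the cell cycle, S phase genes were lower in 15 of 32, with a median of -0.97, against -0.60 over all genes, while G2/M genes were higher in 10 of 32 and lower in 0, with a median of 0.83. Ube2c stood at 457 CPM in the precursors against 187 CPM, and Mcm5 at 75.1 CPM against 163 CPM. Calr, the chaperone calreticulin, stood at 92.5 CPM against 1408 CPM. Gfi1 stood at 25.3 CPM against 109 CPM, and Cebpe at 952 CPM against 385 CPM. Cell cycle genes thus did not separate these sets in 1 direction, and secondary granule genes did, at levels at or above those of granule-high neutrophils for Camp and Ngp. Camp and Ngp were themselves used to choose the granule-high cells.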

How the data were processed

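Single-cell RNA was measured in 3 libraries (TBM, LK and LSK, 1 each). Per the submitters' processing notes, Cell Ranger 4.0.0 and mm10 were used; the annotation release is not given in the sources used here. Per the file headers and the whole values, the deposited matrices give UMI counts without normalization, 1 row per gene and column per barcode. The TBM matrix holds 4317 barcodes, against 3984 cells stated by the labels. Cells with at least 200 genes and at most 10% of UMIs from mitochondrial genes were kept (6 and 23 TBM barcodes failed). No doublets were removed in the values of the report.

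UMIs were summed per set of cells and divided by the summed total (CPM). Intervals are exact Poisson, conditional binomial or Clopper-Pearson intervals at 95%, and cover counting error only; UMIs of 1 library are no replicates. Genes needed 20 UMIs over both sets. Shares were taken after drawing 1500 UMIs per cell once. The members and lists were chosen with earlier results of these data known, and Fcnb, Chil3, S100a8 and S100a9, which chose the cells, were left out of counts. Genes to name were the 12 with the highest and the 12 with the lowest log2 ratio (200 UMIs or more), up to 4 per list (50 UMIs or more), the markers, the whole granule, transcription factor and homing lists, and 6 each way between the upper and lower precursor groups (100 UMIs or more). Other list members named, such as Pcna, Mki67, Calr, Sec61b and Isg15, were chosen after their values were seen. Of the list symbols, 4 were not in the annotation (Azu1, Mx1, Mx2 and Clec7a). Gene ends came from a GENCODE mouse annotation, and promoters and names from RefSeq tables of GRCm38.p6. The scripts were tested on simulated data. Python 3.11.15, numpy 2.4.6, scipy 1.17.1, pandas 2.3.3, scanpy 1.11.5 and matplotlib 3.10.9 were used. Alternatives were other rule limits, filters, scalings, gene minimums, thinning depths and doublet removal.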

Additional observations from a re-analysis of the deposited data

How the results depend on the processing

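No paired analysis was possible because each group has 1 library, and for the same reason no replicate could be left out. The precursor share of TBM cells was 8.37% with limits of 3 Fcnb and 5 Chil3 UMIs, 3.52% with 10 and 20, and 9.35% of the cells left when cells with at least 3 Cd79a and Cd79b UMIs were removed. In the main run 1824 of 8369 genes (21.8%) were at least 2-fold higher and 1009 (12.1%) at least 2-fold lower. Genes at least 2-fold higher were 790 of the 4437 with 100 UMIs, and 458 of 8369 at 4-fold. Genes at least 2-fold lower were 636 of 7886 when every cell had 4000 UMIs, 509 of the 4437 with 100 UMIs, and 301 of 8369 at 4-fold. Part of each fall without a change of fold comes from the smaller number of genes measured. The thinned share with a UMI of Mki67 or Top2a was 48.9% at 3000 UMIs. The basophil and mast cell median turned to -2.55 with limits of 10 and 20 UMIs, to -2.26 with limits on CPM, and to -0.55 without the 3 cells. The Jchain log2 ratio turned to -0.67 without Cd79 cells and -0.52 without the 3 cells; leaving the 3 cells out, splitting off the 7 cells of low S100 share and using granule-high cells alone were chosen after seeing the data. The other list medians and log2 ratios kept their sign where they had passed 2-fold. The S phase median ranged over 2.33 to 3.12, the G2/M median over 1.25 to 2.58, the primary granule median over 2.10 to 3.49 and the gelatinase median over -3.25 to -2.10. The precursor total, 1 draw per cell and the single library limit precision.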
